A study of Saccharomyces cerevisiae with 11 samples.

Results

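RD5 and RD6 are 2 budding yeast (Saccharomyces cerevisiae) samples of the genotype labelled RD, and they were set against ControlSYN3, the 1 sample labelled wild-type in the same expression table. These 3 libraries are 3 of the 11 in the series, which concerns essential genes placed in clusters and used short recoded tags to tell synthetic from native transcripts. The choice of samples rested on names and on measured mating-type values, as given below. It was made with earlier results of these data known. The abbreviation RD is not spelled out in the labels. The deposited columns are headed MD5 and MD6, and taking them for RD5 and RD6 rests on their numbers alone. What ControlSYN3 carries beyond its wild-type genotype, and the growth medium, age and culture of any sample, were not stated in the labels. RD1, the other library of the RD genotype in this table, was left out of the comparison because its mating-type genes differ, and its values are given beside the results. Polyadenylated RNA was sequenced, and each gene has a value in FPKM, the fragments assigned to a gene divided by its length and by the library's mapped total. FPKM values below were rescaled with 1 size factor per library. The comparison holds 5874 rows, nearly all of them single genes.

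A yeast cell that divides quickly spends much of its transcription on ribosomes: genes for ribosomal proteins, for the factors that assemble them and for RNA polymerase I rise and fall with growth. When amino acids run short, the transcription factor Gcn4 is made in larger amounts and raises transcription of genes for amino acid synthesis, through sites whose core reads TGACTC. Genes for the start of DNA replication are switched on in late G1 by the MBF and SBF factors, the first of which binds the MluI cell cycle box ACGCGT, and the factor Zap1 raises zinc uptake genes through the zinc-responsive element.

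The 300 bases before the start codon of 6 genes are shown because the gene groups below differ in the motifs they hold there. All are from the RefSeq R64 reference, written 5′ to 3′ on the strand of the gene, with motif matches in capitals. Lower-case letters hold no match to that gene's motif. ARG1 (chrXV:218911-219210, plus strand) and HIS5 (chrIX:142628-142927, plus strand) encode enzymes of arginine and histidine synthesis, and ADE17 (chrXIII:509281-509580, minus strand) one of purine synthesis. Their capitals mark the Gcn4 core TGACTC, which in ARG1 is read on the opposite strand. CDC21 (chrXV:467590-467889, minus strand), the thymidylate synthase gene, holds 2 MluI boxes ACGCGT. RPA135 (chrXVI:581197-581496, minus strand), the gene of the second largest RNA polymerase I subunit, holds 2 overlapping copies of the PAC core GATGAG on the opposite strand, a motif of ribosome assembly genes. ZRT1 (chrVII:20678-20977, plus strand), the high-affinity zinc transporter gene, holds 1 match to the zinc-responsive element, ACCTT and AAGGT with 1 base between.
ARG1: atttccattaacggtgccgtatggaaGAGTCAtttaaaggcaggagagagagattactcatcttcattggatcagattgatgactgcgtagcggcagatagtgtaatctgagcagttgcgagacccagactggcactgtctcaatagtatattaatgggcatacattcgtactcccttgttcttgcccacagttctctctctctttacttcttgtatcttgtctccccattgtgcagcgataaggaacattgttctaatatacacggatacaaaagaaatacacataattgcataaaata
HIS5: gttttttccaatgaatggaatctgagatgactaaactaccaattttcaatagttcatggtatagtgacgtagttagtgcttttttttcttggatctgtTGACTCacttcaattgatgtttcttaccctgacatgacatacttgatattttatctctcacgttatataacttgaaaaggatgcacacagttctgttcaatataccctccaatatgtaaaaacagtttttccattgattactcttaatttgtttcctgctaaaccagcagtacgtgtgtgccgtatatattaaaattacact
ADE17: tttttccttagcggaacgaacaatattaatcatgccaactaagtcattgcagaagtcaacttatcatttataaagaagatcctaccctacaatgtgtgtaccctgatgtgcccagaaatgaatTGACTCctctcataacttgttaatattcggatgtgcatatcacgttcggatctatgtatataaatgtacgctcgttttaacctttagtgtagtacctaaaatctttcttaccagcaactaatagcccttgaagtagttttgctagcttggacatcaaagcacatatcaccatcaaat
CDC21: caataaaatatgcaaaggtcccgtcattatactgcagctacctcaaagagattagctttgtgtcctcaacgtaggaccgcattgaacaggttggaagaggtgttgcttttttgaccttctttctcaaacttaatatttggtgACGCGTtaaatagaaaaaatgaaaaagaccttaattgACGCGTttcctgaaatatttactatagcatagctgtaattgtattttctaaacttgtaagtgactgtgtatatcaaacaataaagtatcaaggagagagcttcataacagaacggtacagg
RPA135: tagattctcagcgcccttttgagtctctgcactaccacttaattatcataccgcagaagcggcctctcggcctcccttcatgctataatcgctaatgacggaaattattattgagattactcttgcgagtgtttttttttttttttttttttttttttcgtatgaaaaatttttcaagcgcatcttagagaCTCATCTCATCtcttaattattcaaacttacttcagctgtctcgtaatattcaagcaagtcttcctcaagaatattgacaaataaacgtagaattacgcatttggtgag
ZRT1: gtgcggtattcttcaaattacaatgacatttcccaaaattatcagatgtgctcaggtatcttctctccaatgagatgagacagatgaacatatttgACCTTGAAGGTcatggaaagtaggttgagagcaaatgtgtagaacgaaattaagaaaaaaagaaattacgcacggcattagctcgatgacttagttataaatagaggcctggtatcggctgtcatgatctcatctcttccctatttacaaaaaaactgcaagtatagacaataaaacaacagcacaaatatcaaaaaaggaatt

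**Figure D1:**
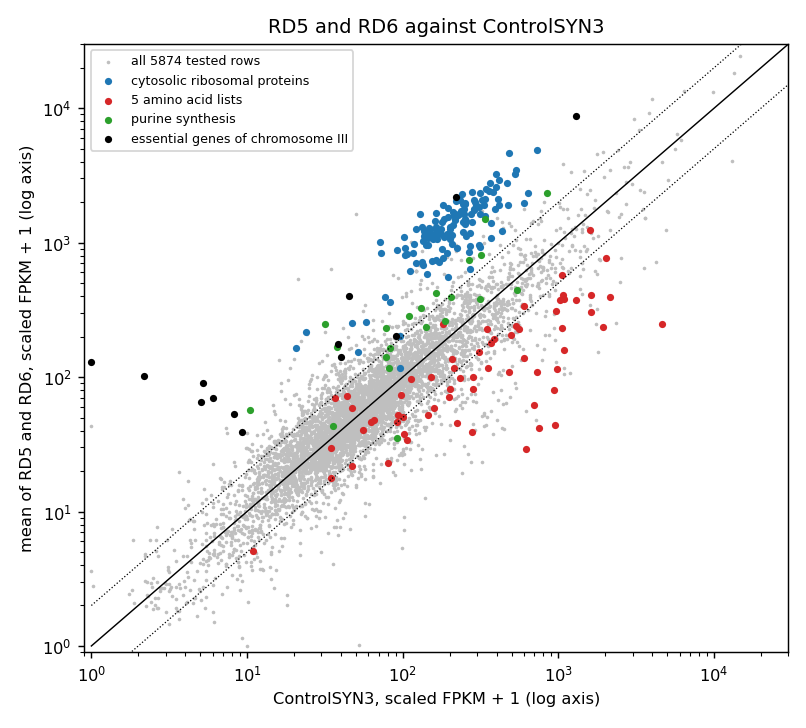
Scaled FPKM + 1 of each of the 5874 tested rows in ControlSYN3 (x axis) against the mean of RD5 and RD6 (y axis), both on log axes. The solid line marks equal values and the dotted lines a 2-fold difference. Cytosolic ribosomal protein genes (blue) lie above the upper dotted line with few exceptions, and genes of 5 amino acid pathways (red) lie mostly below the diagonal.

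RD5 and RD6 differed from ControlSYN3 across much of the transcriptome and little from each other. Most genes of the cytosolic ribosome, of purine and biotin metabolism and of the G1 to S transition were higher in both RD libraries. Most genes of 5 amino acid pathways, nitrogen scavenging, fatty acid oxidation and autophagy were lower. In limma's moderated test, 1653 rows (28.1%) were higher and 1547 rows (26.3%) were lower in RD5 and RD6 at an adjusted p under 0.05. At least a 2-fold difference in both libraries was seen in 486 rows (8.27%) upward and 438 rows (7.46%) downward, and these 2-fold counts use no test. Without rescaling the split of calls was 1346 higher and 1952 lower, and the median log2 difference of all rows was then -0.13 in place of 0.00.

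These calls rest on how closely RD5 and RD6 resembled each other. The median absolute log2 difference between them was 0.11, 95% of rows lay within 0.43, and 20 rows differed by more than 2-fold. Across rows, which are not independent replicates, the Spearman correlation was 0.99 between RD5 and RD6, 0.88 between ControlSYN3 and RD5 and 0.87 between ControlSYN3 and RD6. The single ControlSYN3 library was assumed to vary as little as they do, and whatever sets that 1 library apart cannot be told apart from a difference of the RD strains. The labels do not say whether the samples were separate cultures, so the p-values reflect the difference between these 2 RD samples alone, which could be technical. With RD1 added as another RD library, limma called 0 rows at an adjusted p under 0.05 (smallest adjusted p = 0.280), and 649 of 5895 rows, or 11.0%, had an unadjusted p under 0.05. RD1 was correlated at 0.94 with ControlSYN3, and at 0.91 and 0.90 with RD5 and RD6. RD1 and the RD5 and RD6 pair share ControlSYN3 as their reference, so likeness of the 2 differences is not read as a result below.

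The mating-type genes show why RD1 was left out. ControlSYN3, RD5 and RD6 had the alpha-type pattern and RD1 the a-type pattern. The 4 alpha-specific genes summed to 7827 FPKM in ControlSYN3, 9265 in RD5 and 8799 in RD6, against 111 in RD1. The 7 a-specific genes summed to 76.7 FPKM in ControlSYN3, 46.7 in RD5, 46.8 in RD6 and 4911 in RD1. MF(ALPHA)1, the main alpha pheromone gene, stood at 5738 FPKM in ControlSYN3, 6779 in RD5, 6106 in RD6 and 26.7 in RD1. Of these 11 genes, MF(ALPHA)2 and MFA2 were called higher, and STE6, STE2, ASG7 and AGA2 were called lower in RD5 and RD6. The a-specific calls are on low values, such as STE2 at 11.3 FPKM in ControlSYN3, 6.31 in RD5, 5.8 in RD6 and 435 in RD1. Of 19 haploid-specific and pheromone response genes 10 were called lower, 2 higher and 7 were not called, with a median log2 fold change of -0.43. PRM5 (log2 fold change -1.89 with SE 0.11, adjusted p = 0.000282 by limma) and PRM4 (log2 fold change -1.69 with SE 0.14, adjusted p = 0.000574 by limma) were among the lower ones. PRM5 stood at 239 FPKM in ControlSYN3, 62.5 in RD5, 65.5 in RD6 and 145 in RD1.

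Genes for the proteins of the cytosolic ribosome made up the largest block of higher genes. Of 136 tested, 135 were called higher and 134 were at least 2-fold higher in both libraries, with a median log2 fold change of 2.71, or 6.53-fold, against 0.00 over all rows. The median level was 203.5 FPKM in ControlSYN3, 1176 in RD5 and 1401 in RD6, with 366 in RD1. Together these genes took 3.50% of the FPKM of ControlSYN3, 17.0% of RD5 and 20.1% of RD6, and 6.09% of RD1. Of the 164 rows that were at least 4-fold higher in both libraries, 114 were cytosolic ribosomal protein genes.

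RPL9A, a large-subunit protein gene, had the highest fold change of the group. It stood at 69.9 FPKM in ControlSYN3, 851 in RD5, 1171 in RD6 and 139 in RD1 (log2 fold change 3.82 with SE 0.22, adjusted p = 0.000291 by limma). RPS9B, which led among the small-subunit genes, stood at 128 FPKM in ControlSYN3, 1539 in RD5, 1717 in RD6 and 405 in RD1 (log2 fold change 3.66 with SE 0.17, adjusted p = 0.000205 by limma). In both genes ControlSYN3 was the lowest library, and RD1 lay below RD5 and RD6. RPL15B was the 1 member that was not called, at 95 FPKM in ControlSYN3, 123 in RD5, 108 in RD6 and 94.7 in RD1 (log2 fold change 0.27 with SE 0.12, adjusted p = 0.112 by limma). RPL41B was called but not 2-fold higher in both libraries, at 94.5 FPKM in ControlSYN3, 158 in RD5, 242 in RD6 and 139.6 in RD1; RPL15B and RPL41B are named because they stood apart once their values were seen.

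Most ribosomal proteins of yeast come from a pair of near-identical genes, and how the authors' counting divided shared reads between copies is uncertain for each gene. Summing the copies that had a row gives 78 proteins, 58 of them with 2 such genes. Of 56 listed small-subunit genes 55 had a row, so a sum can miss a copy. The summed FPKM was at least 2-fold higher in both RD libraries for all 78. The log2 difference of the sums, as a mean of RD5 and RD6, ran from 1.45 to 3.59 with a median of 2.74. The group also separated the RD libraries slightly: RD6 was above RD5 in 131 of 136 genes, by a median log2 difference of 0.30. Over all 5874 rows RD6 was above RD5 in 3015. Among the 486 rows at least 2-fold higher, RD6 was farther from ControlSYN3 than RD5 in 342.

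The machinery that builds ribosomes was higher by a smaller amount. Of 135 ribosome biogenesis factors encoded outside chromosome III, 108 were called higher and 1 lower, 38 were at least 2-fold higher, and the median log2 fold change was 0.82. NSR1, a nucleolin-like protein, stood at 54.7 FPKM in ControlSYN3, 344 in RD5, 269.7 in RD6 and 77.4 in RD1 (log2 fold change 2.46 with SE 0.17, adjusted p = 0.000362 by limma). NOP1, the methyltransferase of box C/D snoRNPs, stood at 104 FPKM in ControlSYN3, 406 in RD5, 396 in RD6 and 146 in RD1 (log2 fold change 1.94 with SE 0.12, adjusted p = 0.000317 by limma). HAS1, a nucleolar RNA helicase gene, had a log2 fold change of 1.89 with SE 0.14, adjusted p = 0.00042 by limma, and UTP22, a small-subunit processome gene, had a log2 fold change of 1.83 with SE 0.13, adjusted p = 0.000414 by limma. Here the RD libraries had the opposite order from the ribosomal proteins, with RD6 below RD5 in 118 of 135 genes and a median log2 difference of -0.18. In RD1 the median log2 difference from ControlSYN3 was 0.03 over these genes, against 0.93 in RD5 and 0.72 in RD6.

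Subunits of RNA polymerase I and III, which transcribe ribosomal and transfer RNA, were called higher in 12 of 20 cases, none was called lower, and 6 were at least 2-fold higher. RPA135, whose promoter is shown above, stood at 32 FPKM in ControlSYN3, 85.8 in RD5, 69.2 in RD6 and 37.3 in RD1 (log2 fold change 1.24 with SE 0.15, adjusted p = 0.00167 by limma). RPA49, RPA34 and RPA190, all of RNA polymerase I, were higher with log2 fold changes of 1.40, 1.37 and 1.21. Translation factors were called higher in 34 of 38 cases, with a median log2 fold change of 0.98. TEF4, a subunit of elongation factor eEF1B, stood at 217 FPKM in ControlSYN3, 773 in RD5, 969 in RD6 and 340.5 in RD1 (log2 fold change 1.99 with SE 0.20, adjusted p = 0.000858 by limma), and YEF3, the fungal elongation factor 3, at 203 FPKM in ControlSYN3, 733 in RD5, 767 in RD6 and 273 in RD1 (log2 fold change 1.88 with SE 0.15, adjusted p = 0.000504 by limma). EFT2 also rose (log2 fold change 1.64 with SE 0.15, adjusted p = 0.000748 by limma), but it shares its coding sequence with EFT1, so its value is uncertain. Among the proteins of the mitochondrial ribosome, 54 of 66 genes were called higher and 1 lower, with a median log2 fold change of 0.69, and 8 were at least 2-fold higher.

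**Figure D2:**
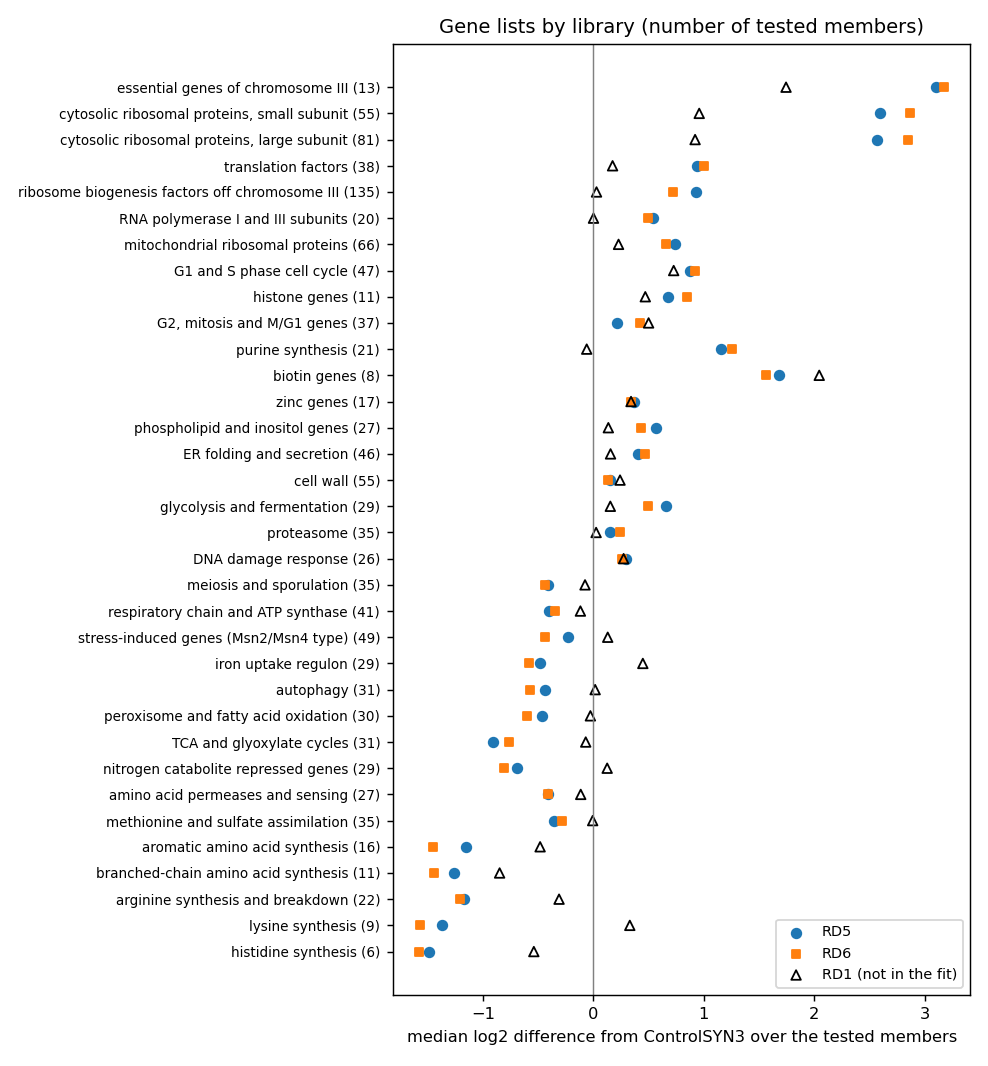
Median log2 difference from ControlSYN3 over the tested members of 34 gene lists, in RD5 (circles), RD6 (squares) and RD1 (open triangles); the number of tested members stands after each name and the line marks no difference. RD5 and RD6 lie close together in each list, between 2.57 and 2.87 for the cytosolic ribosome and below -1 for the 5 amino acid lists, where RD1 lies at 0.92 and 0.96 and between -0.85 and 0.33.

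Rows of essential genes of chromosome III were also higher, and the unknown assignment of reads to them, given below, limits their reading. All 13 listed genes with a row were called higher and at least 2-fold higher in both libraries, and RSC6 and TAF2 of the list had no row that could be matched. Their median was 8.33 FPKM in ControlSYN3, 131.5 in RD5 and 127.5 in RD6, with 73.0 in RD1, and RD5 and RD6 differed by at most 0.22 on the log2 scale in any of them. RRP43, a subunit of the RNA exosome, was listed at 0 in ControlSYN3 and stood at 131.5 FPKM in RD5, 127.5 in RD6 and 74.9 in RD1. SPB1, an rRNA methyltransferase, stood at 1.17 FPKM in ControlSYN3, 103 in RD5, 100.5 in RD6 and 32.7 in RD1 (log2 fold change 5.57 with SE 0.11, adjusted p = 3.68e-05 by limma). PWP2, of the small-subunit processome, stood at 4.21 FPKM in ControlSYN3, 88.2 in RD5, 91.2 in RD6 and 26.3 in RD1 (log2 fold change 4.12 with SE 0.11, adjusted p = 6.28e-05 by limma).

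The other listed genes of chromosome III had smaller fold changes. CDC39, the scaffold of the Ccr4-Not complex, had a log2 fold change of 3.67 with SE 0.13, adjusted p = 0.00013 by limma, and RSA4, an assembly factor of the large subunit, had a log2 fold change of 3.53 with SE 0.11, adjusted p = 0.000118 by limma. PDI1, the protein disulfide isomerase, stood at 219.8 FPKM in ControlSYN3, 2010.5 in RD5, 2344 in RD6 and 1112 in RD1 (log2 fold change 3.30 with SE 0.20, adjusted p = 0.000301 by limma), and PGK1, of glycolysis, at 1296 FPKM in ControlSYN3, 8865 in RD5, 8748 in RD6 and 3591 in RD1 (log2 fold change 2.76 with SE 0.22, adjusted p = 0.000471 by limma). Both were abundant in every library. The log2 fold changes of RRP7 and KRR1, both of small-subunit assembly, were 3.14 and 2.21, and those of PGS1, of phosphatidylglycerol synthesis, and NFS1, the cysteine desulfurase, were 2.71 and 1.80. CTR86 had a value of 2.05. PBN1, of glycosylphosphatidylinositol anchor synthesis, was the least changed at 1.17, with 89.2 FPKM in ControlSYN3, 191 in RD5, 213 in RD6 and 175 in RD1. Only 15 tested rows were placed on chromosome III by the R64 annotation. The others were POL4, a DNA polymerase gene that was called higher with a log2 fold change of 0.47, and YCR051W, which stood at 68.1 FPKM in ControlSYN3, 67.2 in RD5, 68.1 in RD6 and 97.7 in RD1 and was not called. Both are named because they complete these 15 rows, and the unmatched rows could not be placed on any chromosome. The labels do not say how reads of recoded copies were assigned to these rows, so a low row in ControlSYN3 may not hold the whole output of its gene, and this was not tested.

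**Figure D3:**
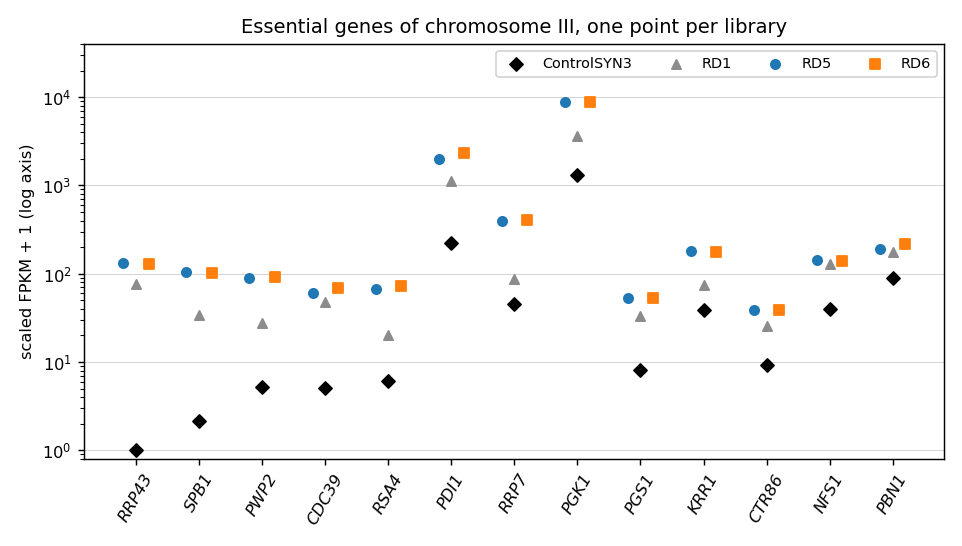
Scaled FPKM + 1 (log axis) of the 13 essential genes of chromosome III with a row, one point per library, ordered by log2 fold change, with RD5 and RD6 drawn slightly to the left and right. In each gene ControlSYN3 (black diamond) is the lowest library, and RD5 and RD6 lie side by side above it; RRP43 is listed at 0 in ControlSYN3.

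Genes of 5 amino acid pathways were lower in RD5 and RD6. Over the lists for arginine, aromatic, branched-chain, histidine and lysine metabolism, 57 of 64 genes were called lower, 4 were called higher and 3 were not called. At least a 2-fold lower level in both libraries was seen in 40 of them and in none a 2-fold higher one, and 17 were at least 4-fold lower. The median log2 fold change was -1.40, and the median level was 328 FPKM in ControlSYN3, 103 in RD5 and 94.3 in RD6, with 238 in RD1. RD6 was below RD5 in 52 of the 64 genes. Among all 438 rows at least 2-fold lower, RD6 was likewise farther from ControlSYN3 than RD5 in 324. In the threonine, serine and glycine list, 4 of 12 genes were called higher, 4 lower and 4 were not called. These shares were near the 28.1% higher and 26.3% lower of all rows. SER2, SHM2, GCV2 and GCV1 were higher, with log2 fold changes of 2.36, 1.48, 0.75 and 0.64. SHM1, THR1, GLY1 and CHA4 were lower, with -0.51, -0.49, -0.48 and -0.38. SER33, GCV3, SER3 and SER1 were not called, with 0.21, -0.04, -0.27 and -0.32.

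Arginine synthesis fell in nearly every step. ARG1, argininosuccinate synthase, stood at 4624 FPKM in ControlSYN3, 291 in RD5, 201 in RD6 and 3385 in RD1 (log2 fold change -4.25 with SE 0.25, adjusted p = 0.000301 by limma). ARG3, ornithine carbamoyltransferase, stood at 749 FPKM in ControlSYN3, 47.2 in RD5, 34.5 in RD6 and 729.6 in RD1 (log2 fold change -4.18 with SE 0.19, adjusted p = 0.000204 by limma). RD1 lay nearer to ControlSYN3 in both genes and far above RD5 and RD6. ARG56 (ARG5,6), which encodes acetylglutamate kinase and reductase, and CPA1, of carbamoyl phosphate synthesis, had log2 fold changes of -3.50 and -3.07. Of 22 arginine genes, 18 were called lower, and CAR2, PRO3 and PRO1 were called higher. CAR2, of arginine breakdown, stood at 35.6 FPKM in ControlSYN3, 63.3 in RD5, 73.6 in RD6 and 62.6 in RD1, and is named because it was seen to go against the rest.

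Among the aromatic genes the enzymes of amino acid breakdown fell most. ARO9, an aromatic aminotransferase, stood at 953 FPKM in ControlSYN3, 41.4 in RD5, 44.9 in RD6 and 571 in RD1 (log2 fold change -4.43 with SE 0.11, adjusted p = 6.28e-05 by limma), and ARO10, the decarboxylase that follows it on the way to fusel alcohols, at 618 FPKM in ControlSYN3, 27.9 in RD5, 28.2 in RD6 and 433 in RD1 (log2 fold change -4.41 with SE 0.10, adjusted p = 5.62e-05 by limma). In both, RD5 and RD6 lay far below ControlSYN3 and RD1. TRP3 and TRP2, whose products form anthranilate synthase, had log2 fold changes of -2.16 and -2.12. In all, 15 of 16 genes were called lower, and ARO7, chorismate mutase, was called higher at 0.71.

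Of 10 listed lysine genes with a row, 9 averaged at least 1 FPKM and were tested, and all 9 were called lower. The remaining gene had too low a mean to be tested, so the list is not covered in full. Over the 9 genes the median log2 difference of RD1 from ControlSYN3 was 0.33. LYS20, a homocitrate synthase, stood at 938 FPKM in ControlSYN3, 90.6 in RD5, 68.6 in RD6 and 1575 in RD1 (log2 fold change -3.56 with SE 0.18, adjusted p = 0.000252 by limma), and LYS1, saccharopine dehydrogenase, at 976 FPKM in ControlSYN3, 126 in RD5, 103 in RD6 and 988 in RD1 (log2 fold change -3.09 with SE 0.16, adjusted p = 0.000252 by limma). LYS9, the step before LYS1, stood at 198 FPKM in ControlSYN3, 71.1 in RD5, 69.3 in RD6 and 817 in RD1 (log2 fold change -1.48 with SE 0.10, adjusted p = 0.000374 by limma). LYS5, LYS14, LYS4, LYS21 and LYS12 had log2 fold changes from -1.66 to -1.03, and the lysine permease gene LYP1 had -0.61.

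All 6 histidine genes were called lower. HIS5, shown above and encoding histidinol-phosphate aminotransferase, stood at 1605 FPKM in ControlSYN3, 351 in RD5, 261 in RD6 and 1014 in RD1 (log2 fold change -2.40 with SE 0.22, adjusted p = 0.000684 by limma), and HIS3, which is also a common strain marker, at 1050.1 FPKM in ControlSYN3, 241 in RD5, 223 in RD6 and 1571 in RD1 (log2 fold change -2.18 with SE 0.14, adjusted p = 0.000357 by limma). HIS7, HIS2, HIS1 and HIS6 had log2 fold changes of -1.59, -1.48, -0.87 and -0.45. In the branched-chain list 9 of 11 genes were called lower. LEU4, the first enzyme of leucine synthesis, stood at 1293 FPKM in ControlSYN3, 395 in RD5, 347 in RD6 and 896 in RD1 (log2 fold change -1.80 with SE 0.17, adjusted p = 0.000758 by limma), and ILV2, acetolactate synthase, at 965 FPKM in ControlSYN3, 344 in RD5, 276 in RD6 and 510.4 in RD1 (log2 fold change -1.64 with SE 0.19, adjusted p = 0.00135 by limma). LEU1, LEU3, BAT1, ILV3, OAC1, ILV1 and BAT2 had values from -1.50 to -0.62, whereas ILV5 (log2 fold change -0.35 with SE 0.19, adjusted p = 0.172 by limma) and LEU9 (log2 fold change -0.23 with SE 0.13, adjusted p = 0.173 by limma) were not called. GCN4, looked up after these values were seen, differed little at the transcript level, with 1285 FPKM in ControlSYN3, 1288 in RD5, 1313 in RD6 and 1359.9 in RD1 (log2 fold change 0.02 with SE 0.19, adjusted p = 0.941 by limma).

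Of 35 sulfur amino acid genes, 18 were called lower and 9 higher, against 26.3% and 28.1% of all rows. Their median log2 fold change was -0.34. Genes of the step from cysteine to homocysteine and of sulfate reduction were among the lower ones: STR3, cystathionine beta-lyase, stood at 319.7 FPKM in ControlSYN3, 25.6 in RD5, 19.1 in RD6 and 184 in RD1 (log2 fold change -3.80 with SE 0.18, adjusted p = 0.000204 by limma), and STR2, cystathionine gamma-synthase, at 331 FPKM in ControlSYN3, 45.2 in RD5, 39.6 in RD6 and 173 in RD1 (log2 fold change -2.94 with SE 0.12, adjusted p = 0.000163 by limma). MET28, a regulator of the pathway, and MET16, of sulfate reduction, had log2 fold changes of -2.57 and -2.04. SAM2, SAM1 and SAH1, of the methyl cycle, were higher, and they are named because they were seen to move against the list. SAM1 stood at 92.1 FPKM in ControlSYN3, 491 in RD5, 593 in RD6 and 164 in RD1 (log2 fold change 2.54 with SE 0.16, adjusted p = 0.000335 by limma), SAM2 at 30.7 FPKM in ControlSYN3, 177 in RD5, 254 in RD6 and 89 in RD1 (log2 fold change 2.75 with SE 0.22, adjusted p = 0.000483 by limma) and SAH1 at 125 FPKM in ControlSYN3, 634 in RD5, 721 in RD6 and 294 in RD1 (log2 fold change 2.42 with SE 0.15, adjusted p = 0.00034 by limma). SAM1 and SAM2 are near-identical, so the division of reads between them is uncertain.

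Purine synthesis went the other way from the 5 amino acid lists. Of 21 genes, 17 were called higher and 1 lower, 11 were at least 2-fold higher, and the median log2 fold change was 1.31. The median level was 129 FPKM in ControlSYN3, 260 in RD5 and 259 in RD6, with 111 in RD1. ADE17, shown above, encodes the enzyme of the last steps to IMP and stood at 337 FPKM in ControlSYN3, 1413 in RD5, 1595 in RD6 and 398 in RD1 (log2 fold change 2.15 with SE 0.19, adjusted p = 0.000595 by limma). IMD3, IMD2 and IMD4 encode IMP dehydrogenases of guanine nucleotide synthesis and had log2 fold changes of 2.98, 2.38 and 2.15, though these near-identical genes can share reads. IMD3 stood at 30.7 FPKM in ControlSYN3, 261 in RD5, 237 in RD6 and 72.6 in RD1. BAS1, a transcriptional activator of the pathway, was the 1 member called lower, at 91.3 FPKM in ControlSYN3, 39 in RD5, 30.0 in RD6 and 52.4 in RD1 (log2 fold change -1.39 with SE 0.17, adjusted p = 0.0017 by limma). The pyrimidine list had 5 genes called higher and 4 called lower of 14, against 28.1% and 26.3% of all rows. URA10, the minor orotate phosphoribosyltransferase gene, stood at 344 FPKM in ControlSYN3, 61.2 in RD5, 38.4 in RD6 and 287 in RD1 (log2 fold change -2.80 with SE 0.26, adjusted p = 0.000755 by limma), and URA1, dihydroorotate dehydrogenase, at 948 FPKM in ControlSYN3, 194 in RD5, 185 in RD6 and 104 in RD1 (log2 fold change -2.32 with SE 0.13, adjusted p = 0.000286 by limma). URA1 was also low in RD1.

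**Figure D4:**
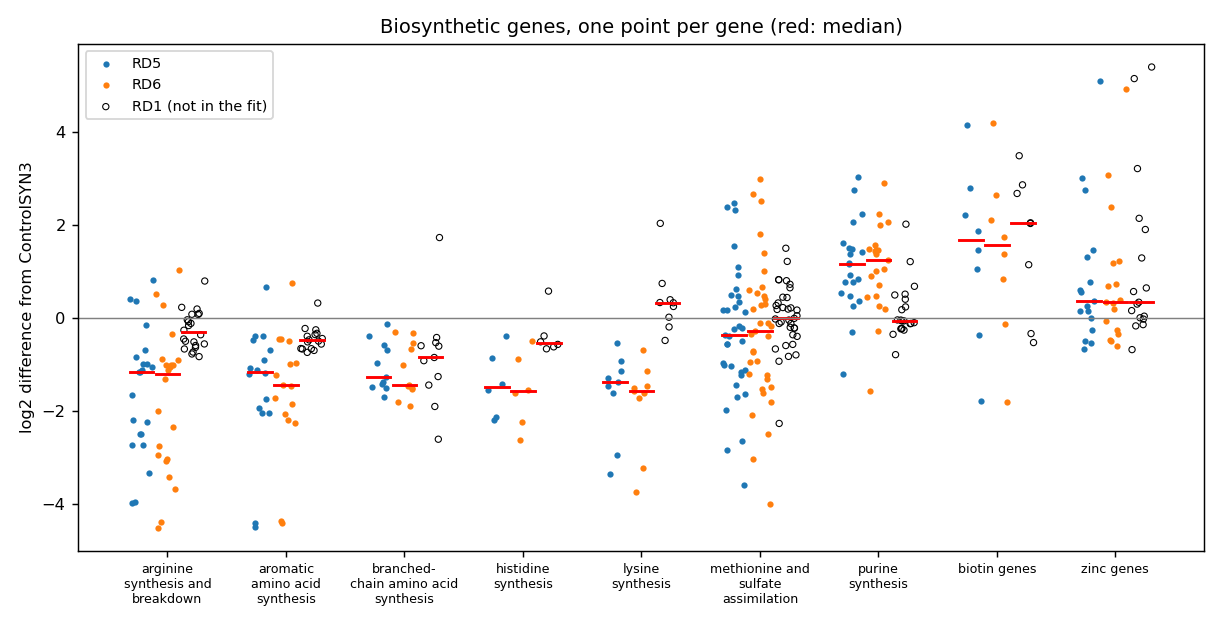
Log2 difference from ControlSYN3 of each tested gene of 9 lists in RD5 (blue), RD6 (orange) and RD1 (open circles), with the median of each library in red. In the 5 amino acid lists the RD5 and RD6 medians lie between -1.58 and -1.16, in purine synthesis they are 1.16 and 1.25 while that of RD1 is -0.06, and in the biotin list all 3 medians are above 1.5.

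Vitamin and metal genes held some of the largest single rises. In biotin metabolism 6 of 8 genes were called higher, with a median log2 fold change of 1.62 and a median of 2.05 in RD1. BIO2, biotin synthase, stood at 33.8 FPKM in ControlSYN3, 620.4 in RD5, 644 in RD6 and 392 in RD1 (log2 fold change 4.18 with SE 0.12, adjusted p = 9.22e-05 by limma). BIO4, BIO5, BIO3, VHT1, the biotin transporter gene, and BPL1, the biotin ligase gene, had log2 fold changes of 2.73, 2.17, 1.82, 1.42 and 0.95. VHR1, an activator of biotin genes, was called lower at 304 FPKM in ControlSYN3, 87.6 in RD5, 86.4 in RD6 and 211 in RD1 (log2 fold change -1.79 with SE 0.10, adjusted p = 0.000291 by limma), and VHR2 was not called (log2 fold change -0.24 with SE 0.13, adjusted p = 0.172 by limma). In BIO4, BIO5, BIO3 and VHT1, RD1 was above both RD5 and RD6.

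Of 17 zinc genes 9 were called higher, 3 lower and 5 were not called, 5 were at least 2-fold higher, and the median log2 fold change was 0.38. ZRT1, shown above, had the highest fold change among named genes that are off chromosome III and not listed at 0 in ControlSYN3: it stood at 49.4 FPKM in ControlSYN3, 1729.7 in RD5, 1552 in RD6 and 2140.0 in RD1 (log2 fold change 5.02 with SE 0.16, adjusted p = 0.000118 by limma). ZPS1, a zinc-regulated cell surface protein gene, stood at 21.1 FPKM in ControlSYN3, 179 in RD5, 187 in RD6 and 789 in RD1 (log2 fold change 3.06 with SE 0.11, adjusted p = 0.00013 by limma), and ADH4, a zinc-regulated alcohol dehydrogenase, at 56.2 FPKM in ControlSYN3, 385 in RD5, 299.6 in RD6 and 532 in RD1 (log2 fold change 2.57 with SE 0.17, adjusted p = 0.000361 by limma). ZAP1, the activator itself, stood at 41.3 FPKM in ControlSYN3, 115 in RD5, 97.7 in RD6 and 158 in RD1 (log2 fold change 1.34 with SE 0.13, adjusted p = 0.000889 by limma). In these 4 genes ControlSYN3 was the lowest library and RD1 the highest. Other cofactor genes were lower: SNZ1 and SNO1, of vitamin B6 synthesis, had log2 fold changes of -3.60 and -2.85, and SNZ1 stood at 1802 FPKM in ControlSYN3, 189 in RD5, 116 in RD6 and 2332 in RD1. In the thiamine and vitamin B6 list as a whole, 7 of 24 genes were called higher and 7 lower, near the 28.1% and 26.3% of all rows. PHO3, an acid phosphatase used in thiamine uptake, was among the higher ones (log2 fold change 2.03 with SE 0.15, adjusted p = 0.000425 by limma).

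Iron genes were more often lower. In the iron uptake regulon 17 of 29 genes were called lower and 3 higher, with a median log2 fold change of -0.49, while the median in RD1 was 0.45. In iron-sulfur cluster assembly 11 of 25 were called lower and 2 higher, and 7 were at least 2-fold lower. CIA2, of the cytosolic assembly machinery, stood at 344 FPKM in ControlSYN3, 47.2 in RD5, 39.1 in RD6 and 169.9 in RD1 (log2 fold change -2.97 with SE 0.14, adjusted p = 0.000204 by limma). ISU1, the mitochondrial scaffold, stood at 934 FPKM in ControlSYN3, 230.0 in RD5, 231 in RD6 and 587 in RD1 (log2 fold change -2.01 with SE 0.14, adjusted p = 0.000362 by limma). ISA1 and CFD1, which also act in cluster assembly, had log2 fold changes of -2.07 and -2.02. NFS1, the desulfurase that supplies sulfur to the same scaffold, is one of the chromosome III genes given above and was higher.

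Genes of the G1 to S transition were higher. Of 47, 36 were called higher and none lower, 16 were at least 2-fold higher, and the median log2 fold change was 0.94. The median level was 21.1 FPKM in ControlSYN3, 40.6 in RD5, 44.7 in RD6 and 40.7 in RD1. PCL1, a G1 cyclin, stood at 19.1 FPKM in ControlSYN3, 113 in RD5, 157 in RD6 and 88.2 in RD1 (log2 fold change 2.74 with SE 0.20, adjusted p = 0.000406 by limma), and RNR1, the large subunit of ribonucleotide reductase, at 18 FPKM in ControlSYN3, 108 in RD5, 124 in RD6 and 72.2 in RD1 (log2 fold change 2.62 with SE 0.12, adjusted p = 0.000204 by limma). CDC21, shown above, stood at 15.5 FPKM in ControlSYN3, 84.8 in RD5, 93.6 in RD6 and 63.5 in RD1 (log2 fold change 2.45 with SE 0.11, adjusted p = 0.000204 by limma). TOS4, a regulator expressed in G1, had a log2 fold change of 2.37 with SE 0.12, adjusted p = 0.000278 by limma. In these genes ControlSYN3 was the lowest library, and it is the shared reference of RD5, RD6 and RD1. In bulk RNA, more cells in this phase and more transcript per cell cannot be told apart.

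Histone genes, which are expressed in S phase, were called higher in 7 of 11 cases. HTB2 stood at 481 FPKM in ControlSYN3, 1232 in RD5, 1568 in RD6 and 996 in RD1 (log2 fold change 1.53 with SE 0.22, adjusted p = 0.00282 by limma) and HTA2 at 225 FPKM in ControlSYN3, 491 in RD5, 624 in RD6 and 393 in RD1 (log2 fold change 1.29 with SE 0.19, adjusted p = 0.00315 by limma). HHO1, HHF2, HHF1, HTZ1 and CSE4 had log2 fold changes from 1.27 to 0.52. HHT1, HTB1, HHT2 and HTA1 were not called, with values of 0.38, 0.10, -0.01 and 0.00. HTB1 and HTA1 lie at -0.03 and -0.13 without rescaling. The core histone genes come in near-identical pairs, so the division of reads within a pair is uncertain.

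Genes of the citric acid cycle and of fatty acid oxidation were more often lower than higher. In the citric acid and glyoxylate cycles 24 of 31 genes were called lower and 2 higher, with a median log2 fold change of -0.83. ICL1, isocitrate lyase, stood at 90.6 FPKM in ControlSYN3, 32.6 in RD5, 30.7 in RD6 and 109 in RD1 (log2 fold change -1.49 with SE 0.11, adjusted p = 0.00039 by limma), and MLS1, malate synthase, at 24.9 FPKM in ControlSYN3, 7.06 in RD5, 5.9 in RD6 and 61.7 in RD1 (log2 fold change -1.79 with SE 0.18, adjusted p = 0.000952 by limma). IDP2 and SFC1, a dehydrogenase and a mitochondrial carrier, had -1.56 and -1.66. The respiratory chain and ATP synthase list moved less: of 41 genes 16 were called lower, 1 higher and 24 were not called, with a median log2 fold change of -0.38, and 3 were at least 2-fold lower. In the peroxisome and fatty acid oxidation list 19 of 30 genes were called lower and 1 higher. The 4 largest drops there included 3 genes of the carnitine shuttle: YAT2 stood at 239.8 FPKM in ControlSYN3, 20.6 in RD5, 16.1 in RD6 and 185 in RD1 (log2 fold change -3.65 with SE 0.16, adjusted p = 0.000195 by limma), CRC1 at 37.6 FPKM in ControlSYN3, 6.33 in RD5, 5.11 in RD6 and 49.5 in RD1 (log2 fold change -2.53 with SE 0.18, adjusted p = 0.000409 by limma) and CAT2 at 85.8 FPKM in ControlSYN3, 19.6 in RD5, 17.9 in RD6 and 102 in RD1 (log2 fold change -2.14 with SE 0.12, adjusted p = 0.000278 by limma). PEX21, of peroxisomal import, had a log2 fold change of -3.10 with SE 0.16, adjusted p = 0.000278 by limma. RD1 was above ControlSYN3 in ICL1, MLS1, CRC1 and CAT2.

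Genes repressed when good nitrogen sources are present were called lower in 18 of 29 cases and higher in 1, with a median log2 fold change of -0.78. UGA3, the activator of GABA use, stood at 322 FPKM in ControlSYN3, 58.4 in RD5, 42.4 in RD6 and 233 in RD1 (log2 fold change -2.67 with SE 0.20, adjusted p = 0.00041 by limma), and DUR3, a urea and polyamine transporter, at 59.9 FPKM in ControlSYN3, 12.2 in RD5, 8.47 in RD6 and 73.7 in RD1 (log2 fold change -2.45 with SE 0.21, adjusted p = 0.000615 by limma). DAL3, of allantoin use, and MEP2, the ammonium permease gene, had log2 fold changes of -1.80 and -1.70. Autophagy genes were called lower in 18 of 31 cases and higher in 2. ATG41, which is needed for full autophagy on nitrogen starvation, stood at 2350.4 FPKM in ControlSYN3, 276 in RD5, 222 in RD6 and 1580.1 in RD1 (log2 fold change -3.24 with SE 0.19, adjusted p = 0.000301 by limma), and ATG1, the kinase that starts the process, at 112 FPKM in ControlSYN3, 21.1 in RD5, 17.9 in RD6 and 70.4 in RD1 (log2 fold change -2.46 with SE 0.13, adjusted p = 0.000278 by limma). ATG39, a receptor for autophagy of the nucleus, and ATG14, of the lipid kinase complex, had -1.85 and -1.32. Of 49 stress-induced genes 20 were called lower and 8 higher, against 26.3% and 28.1% of all rows. SPG4, TMA10, HSP78 and DDR2 had log2 fold changes of -2.48, -2.47, -2.09 and -2.0, and DDR2 stood at 4916 FPKM in ControlSYN3, 1194 in RD5, 1270.0 in RD6 and 3309 in RD1.

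Lipid, secretory and cell wall genes were higher in part. Of 27 phospholipid genes 14 were called higher and 6 lower, against 28.1% and 26.3% of all rows. ITR1, the inositol transporter gene, stood at 104 FPKM in ControlSYN3, 375 in RD5, 465 in RD6 and 220.1 in RD1 (log2 fold change 2.0 with SE 0.17, adjusted p = 0.000537 by limma), CHO2, of phosphatidylcholine synthesis, at 27.1 FPKM in ControlSYN3, 87.9 in RD5, 109 in RD6 and 52.1 in RD1 (log2 fold change 1.81 with SE 0.15, adjusted p = 0.000532 by limma) and ACC1, acetyl-CoA carboxylase, at 30.3 FPKM in ControlSYN3, 93.5 in RD5, 106 in RD6 and 54.1 in RD1 (log2 fold change 1.68 with SE 0.12, adjusted p = 0.000401 by limma). In the endoplasmic reticulum list 27 of 46 genes were called higher and 1 lower. PMT4 and PMT2, mannosyltransferases of the secretory pathway, had log2 fold changes of 1.69 and 1.54, and ALG5 and SIL1, of N-glycosylation and of BiP nucleotide exchange, had 1.55 and 1.44. Of 55 cell wall genes 19 were called higher and 8 lower, against 28.1% and 26.3% of all rows. Their median log2 fold change was 0.13, and 12 (21.8%) were at least 2-fold higher, against 8.27% of all rows. SCW4, a cell wall glucanase-like protein gene, stood at 132 FPKM in ControlSYN3, 887 in RD5, 843 in RD6 and 679 in RD1 (log2 fold change 2.70 with SE 0.15, adjusted p = 0.000278 by limma), and GAS1, a glucan remodelling enzyme, at 325 FPKM in ControlSYN3, 1040.2 in RD5, 1182 in RD6 and 603 in RD1 (log2 fold change 1.77 with SE 0.18, adjusted p = 0.000952 by limma). CIS3 and CWP1, of wall proteins, had 1.92 and 1.89. The glycolysis list had 15 genes called higher and 6 lower of 29, against 28.1% and 26.3% of all rows. Its median log2 fold change was 0.59. PGK1, given above, is not in that list. ADH4, also given above, TDH2, PDC1 and ENO2 had log2 fold changes of 2.57, 1.84, 1.43 and 1.28. ADH5, an alcohol dehydrogenase gene, is named because it was seen to go against most of the list. It stood at 490.1 FPKM in ControlSYN3, 82.7 in RD5, 56.2 in RD6 and 293 in RD1 (log2 fold change -2.83 with SE 0.23, adjusted p = 0.000504 by limma).

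A few single rows stood at the ends of the range without belonging to these lists. YLR035C-A, part of a mutant Ty retrotransposon, was listed at 0 in ControlSYN3 and stood at 30.9 FPKM in RD5, 52.9 in RD6 and 89.7 in RD1. YER160C, another Ty gag-pol row, stood at 51.5 FPKM in ControlSYN3, was listed at 0 in RD5 and was at 0.0207 in RD6 and 0.00974 in RD1. Ty copies are near-identical, so a value can belong to another copy. SRL4 stood at 98.2 FPKM in ControlSYN3, 4.88 in RD5, 3.87 in RD6 and 42.4 in RD1 (log2 fold change -4.21 with SE 0.18, adjusted p = 0.000163 by limma), RTC2, a putative vacuolar exporter of cationic amino acids, at 716 FPKM in ControlSYN3, 59.2 in RD5, 35 in RD6 and 546 in RD1 (log2 fold change -3.94 with SE 0.29, adjusted p = 0.000412 by limma), and YOR186W, which has no assigned function, at 101 FPKM in ControlSYN3, 8.62 in RD5, 4.0 in RD6 and 169 in RD1 (log2 fold change -3.87 with SE 0.37, adjusted p = 0.000805 by limma). In SRL4, RTC2 and YOR186W both RD5 and RD6 lay below ControlSYN3 and below RD1. Of 7 tested strain marker genes 5 were called lower and 2 higher. Besides HIS3 and LYP1, given above, CAN1, MET17 and TRP1 were lower, with log2 fold changes of -1.24, -0.63 and -0.41. ADE2 and URA3 were higher, with 0.95 and 0.65. URA3 stood at 355 FPKM in ControlSYN3, 549 in RD5, 565 in RD6 and 2185 in RD1.

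The promoters of these groups held different motifs. Each motif was searched on both strands of the 300-base windows of 5714 tested protein-coding genes, and no motif's letters contain those of another. TGACTC was found in 8.02% of all windows, in 103 of 426 windows (24.2%) of genes at least 2-fold lower and in 23 of 474 windows (4.85%) of genes at least 2-fold higher. It was in 33 of 64 windows (51.6%) of the 5 amino acid lists. It was also in 12 of 21 windows (57.1%) of purine genes, where the median log2 fold change of the genes with the motif was 1.33. HIS5 and ADE17 both carry the core within the window, 202 and 177 bases before the start, and moved in opposite directions. The medians did not follow the number of matches: they were 0.02, -0.32, -0.20 and 0.71 for genes with 0, 1, 2 and 3 or more, the last of which holds 3 genes. The share at least 2-fold lower did rise, with 6.15%, 22.1%, 25.7% and 33.3% in the same order. The share at least 2-fold higher was 8.58%, 4.52%, 11.4% and 0%.

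GATGAG was in 18.7% of all windows and in 120 of 135 windows (88.9%) of ribosome biogenesis factors, against 16 of 136 windows (11.8%) of cytosolic ribosomal proteins. Genes with 0, 1, 2 and 3 or more matches had median log2 fold changes of -0.02, 0.05, 0.50 and 0.55. ACGCGT was in 3.50% of all windows and in 16 of 47 (34.0%) of the G1 to S list. The 22 genes with 2 boxes had a median log2 fold change of 0.96, against 0.35 for the 178 genes with 1 box and -0.01 for the rest. The stress response element core AGGGG was in 22.4% of all windows, in 37 of 48 (77.1%) of the stress-induced list and in 130 of 426 (30.5%) of the genes at least 2-fold lower. Genes with 3 or more matches had a median of -0.41. The zinc-responsive element was found in 6 windows (0.105%), those of ZRT1 and 5 others. These matches describe the windows, and the presence or absence of letters says nothing of binding.

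**Figure D5:**
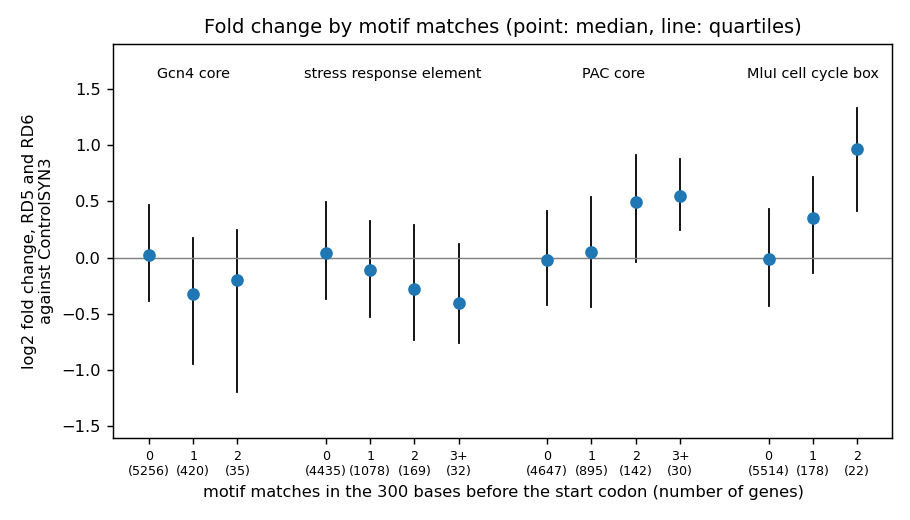
Median (point) and quartiles (line) of the log2 fold change of RD5 and RD6 against ControlSYN3 for genes grouped by the number of motif matches in the 300 bases before the start codon, with the number of genes in brackets; groups under 20 genes are left out. The median falls from 0.04 to -0.41 with matches to the stress response element and rises from -0.01 to 0.96 with MluI boxes.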

How the data were processed

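Transcript levels of ControlSYN3, RD5, RD6 and RD1 came from 1 table of FPKM deposited by the authors, per the file headers. Per the labels' protocols, RNA came from frozen, powdered cells through Trizol, and oligo-dT beads were used for the libraries. RSEM, Bowtie2, BWA and the R64 build are named, per the submitters' processing notes, with no versions or roles, and strandedness is not stated, so an antisense or overlapping gene cannot be told from its partner. FPKM hold no read counts, so the depth of each library is unknown and no counting interval is given. The summed FPKM of a library ran from 944944 to 1032360.

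The table has 5931 rows, of which 5770 were matched by gene number to the RefSeq R64 annotation, 158 carry short numbers and 3 carry long numbers with no match. Unmatched rows were tested and are not named. Columns headed MD were given to RD samples by number. Libraries were rescaled by the median of ratios (size factors 1.06 for ControlSYN3, 0.979 for RD5, 0.965 for RD6 and 1.03 for RD1). Rows with a mean of at least 1 FPKM were tested on log2(FPKM + 1) by limma 3.58.1 (R 4.3.3; trended, robust empirical Bayes), with 1 residual degree of freedom and Benjamini-Hochberg adjustment at 0.05 over all 5874 rows. Because 1 is added before taking the log2, fold changes of low genes come out too small. The script was tested on simulated data. Promoter windows were read from the R64 reference with Python 3.11.15 (pandas 2.3.3), and figures drawn with matplotlib 3.10.9.

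The libraries, the 56 gene lists and the lists to describe were chosen with earlier results of these data known. Named genes are the 10 top and 10 bottom fold changes among called genes averaging 10 FPKM or more, the 4 most changed called members of lists whose 2-fold share was at least 2 times that of all rows, all members of lists with at most 12 tested genes that the text describes, and mating-type, marker and chromosome III essential genes; others are stated where they occur. The alternatives were no scaling, no minimum or 10 FPKM, a pseudocount of 0.1, RD1 added, limma's treat for a change above 2-fold, no trend or robust estimate, and leaving out RD5 or RD6.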

Additional observations from a re-analysis of the deposited data

How the results depend on the processing

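The counts of calls moved most with RD1 and with a demand on size. With RD1 added, 0 genes were called higher and 0 lower, and 145 and 46 rows were at least 2-fold higher or lower in all 3 RD libraries. Limma's treat for a change above 2-fold called 244 higher and 181 lower. Without scaling, without a minimum, with one of 10 FPKM, with a pseudocount of 0.1 and without trend or robust estimate, both counts of calls and both 2-fold counts stayed within 1.5 times. Leaving out RD5 or RD6 leaves 1 library against 1 and no test, and the 2-fold counts were 537 to 591 higher and 480 to 550 lower. With RD1 added, the log2 fold change took the other sign for MFA1 (1.95), STE2 (1.18), BAR1 (1.08), AGA2 (0.95), ASG7 (0.55), MF(ALPHA)1 (-2.46), MF(ALPHA)2 (-1.03), CCS1 (-0.040), BAT2 (0.17), GDH1 (0.27), GDH2 (0.060) and HHT2 (0.023), and without scaling for CCS1 (-0.11), HTA1 (-0.13) and HTB1 (-0.033). The cause was not tested, beyond the mating-type difference of RD1 in the first 7. No paired analysis was possible because ControlSYN3 and RD share fewer than 2 replicate numbers. The single wild-type library and the unknown depth limit every value given.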
